A study of Mus musculus with 31 samples.

Results

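Chemokines are small secreted proteins that attract leukocytes by binding receptors on their surface. Monocytes leave the bone marrow and enter inflamed tissue mainly through the receptor Ccr2, whose ligands include Ccl2 and Ccl7, while monocytes that patrol the vessel wall carry high levels of the fractalkine receptor Cx3cr1. Cxcl9, Cxcl10 and Cxcl11 are induced by interferon and attract activated T cells and natural killer cells through Cxcr3. Cxcl13 attracts B cells through Cxcr5, Ccl17 attracts T cells through Ccr4, and Ccl9 is a ligand of Ccr1 made in mice by macrophages and other myeloid cells.

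These 10 genes, Ccl2, Ccl7, Ccl9, Ccl17, Cxcl9, Cxcl10, Cxcl11, Cxcl13, Ccr2 and Cx3cr1, were followed in mouse lung after injection of oleic acid, a fatty acid that injures the lung when given into a vein. They were found by the gene name in the scanner output or by the current symbol of the probe's accession, which gave 14 of the 55681 probes on the array. All 10 had a probe that could be tested, among 25115 genes or unnamed transcripts tested.

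Lungs came from 31 female C57BL/6 mice aged 6 weeks, all anaesthetised with xylazine and ketamine, and each array held the whole lung RNA of 1 mouse. An injection of 200 µl with oleic acid at 1.2 µl per g of mouse was given through the tail vein to 18 mice. Their lungs were taken from 3 mice at each of 1, 1.5, 3, 4, 18 and 24 h. The same volume of physiological serum, called saline here, was injected into 13 mice, 3 for the 1 h group and 2 for each later time. The tests therefore rest on few mice per time.

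The oleic acid arrays 1.5 h replicate 3 and 3 h replicate 2 were left out, because their spike-in response had a slope of 1.66 and 0.751, against 0.937 to 1.06 on the other 29 arrays. That left 16 oleic acid and 13 saline arrays, with 51.2% to 82.4% of spots well above background. The arrays lay on 4 slides that followed time. Slide 1 held the 1 h arrays and 1 saline 1.5 h array, and slide 2 the other 1.5 h arrays and most 3 h arrays. Slide 3 held oleic acid 3 h replicate 3, the 4 h arrays and the saline 18 h arrays. Slide 4 held the oleic acid 18 h and all 24 h arrays. Oleic acid 3 h replicate 3 thus shared no slide with the saline 3 h arrays. Treatment and slide cannot be told apart at 18 h, nor can late time and slide in oleic acid mice. In whole lung, fewer cells of a type and less RNA per cell cannot be told apart.

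Levels are log2 processed signals minus the 75th percentile of the same array, so 1 unit is a doubling of signal and a negative level lies below that percentile. Levels of different probes are not comparable. A difference passed where its limma p-value, adjusted by the Benjamini-Hochberg method over all 25115 tested, was under 0.05. The lung markers Sftpc, Sftpa1, Ager, Scgb1a1, Cldn5 and Epcam were well above background on all 29 arrays.

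Sequence was looked at first for Cxcl11, since its brighter probe, the one tested, holds a run of bases also found in promoter windows and probes of other genes. Cxcl11 is annotated as a transcribed pseudogene in the current RefSeq entry for this strain background. Its probes are shown as windows of 30 bases, with the 20 bases that were searched for in capitals.

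Cxcl11 tested probe, bases 20 to 49: agccaGGGCTACACAGAGAAACCCTatctt
Cxcl11 other probe, bases 1 to 30: TATACACCTTAATTTCAGCActtgaaaggc

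The capitals of the tested probe occur in 15 of 32851 RefSeq promoter windows of mouse genes (0.0457%) and in 6 probes of other genes, and those of the other probe occur in none. Over its whole length the tested probe shares at least 1 run of 20 bases with 22 promoter windows (0.067%) and 7 probes of other genes. None of the other 13 probes of the set shares such a run with a promoter window. The tested Cx3cr1 probe shares one with 1 probe of another gene. Across the array, 218 of 55681 probes (0.392%) share one with 20 or more promoter windows. These runs were counted on either strand, and neither a promoter window nor a probe shows that RNA carries them. Whether the signal named Cxcl11 below includes RNA of other genes was not tested.

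Promoter sequence is shown for Cxcl10, Cxcl9 and Cxcl13, the ligands that lay above saline most often among those with a RefSeq entry. Each window holds the 250 bases before the gene's start (build GRCm38.p6, 5′ to 3′ on the gene's strand). Capitals mark matches to the interferon response core (GAAA, any 2 bases, GAAA) and to the kappaB motif (GGGA, any 4 bases, CC), searched on both strands with overlaps counted.

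Cxcl10, chr5:92348890-92349139, minus strand: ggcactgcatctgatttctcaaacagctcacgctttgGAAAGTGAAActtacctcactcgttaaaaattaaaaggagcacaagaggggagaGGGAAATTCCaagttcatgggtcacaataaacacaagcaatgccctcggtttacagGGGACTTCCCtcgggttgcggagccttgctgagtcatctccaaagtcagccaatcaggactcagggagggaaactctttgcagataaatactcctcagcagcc
Cxcl9, chr5:92328080-92328329, minus strand: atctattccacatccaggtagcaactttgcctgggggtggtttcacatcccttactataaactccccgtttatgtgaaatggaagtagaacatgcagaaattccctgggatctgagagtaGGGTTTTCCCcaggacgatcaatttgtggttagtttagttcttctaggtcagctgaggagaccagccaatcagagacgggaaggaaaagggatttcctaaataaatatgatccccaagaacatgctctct
Cxcl13, chr5:95956689-95956938, plus strand: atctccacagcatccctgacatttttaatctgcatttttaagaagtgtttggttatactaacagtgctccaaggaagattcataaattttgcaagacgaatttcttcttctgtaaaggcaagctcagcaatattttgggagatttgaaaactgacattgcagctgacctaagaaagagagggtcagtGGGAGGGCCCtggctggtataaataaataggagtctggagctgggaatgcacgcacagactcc

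Cxcl10 held 1 interferon core, which 978 of 32851 promoter windows of this length hold (2.98%), and 2 kappaB matches, of which 17.6% of windows hold at least 1. Cxcl9 and Cxcl13 held 1 kappaB match each and no interferon core. Neither motif was found in the windows of Ccl9, Ccl17, Ccr2 and Cx3cr1. These matches describe letters only, and 3 genes, Ccl2, Ccl7 and Cxcl11, have no entry in the table used.

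Oleic acid moved none of the 10 genes past the threshold in any comparison with saline. Limma called 0 members at 1, 1.5, 3, 4, 18 and 24 h, where 0%, 0%, 0%, 0.0199%, 0.0199% and 0.0159% of all features were called. Before adjustment, p was under 0.05 for Cx3cr1 at 1.5 h, Cxcl13 at 4 h and Cxcl10 at 24 h, 1 of 10 members each, at times when 1.42%, 7.64% and 4.74% of all features met that mark. At 1, 3 and 18 h 0 members met it, beside 4.3%, 6.3% and 2.31% of features. The F test over the 6 times called 0 members (0.0159% of features), with 1 member, Cxcl13, under an unadjusted 0.05 (3.21% of features). The only member called in any comparison was Ccr2, between late and early oleic acid mice.

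Without a test, every oleic acid array used lay above every saline array of its time for 2 members at 1 h (3.19% of features), 5 at 1.5 h (11%), 6 at 3 h (18%), 1 at 4 h (8.34%), 0 at 18 h (5.51%) and 4 at 24 h (5.92%). For no member did all oleic acid arrays lie below, beside 1.41%, 14%, 17.7%, 14.5%, 6.51% and 15.6% of features at these times. The 4 members at 24 h were Cxcl9, Cxcl10, Cxcl13 and Ccr2.

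**Figure D1:**
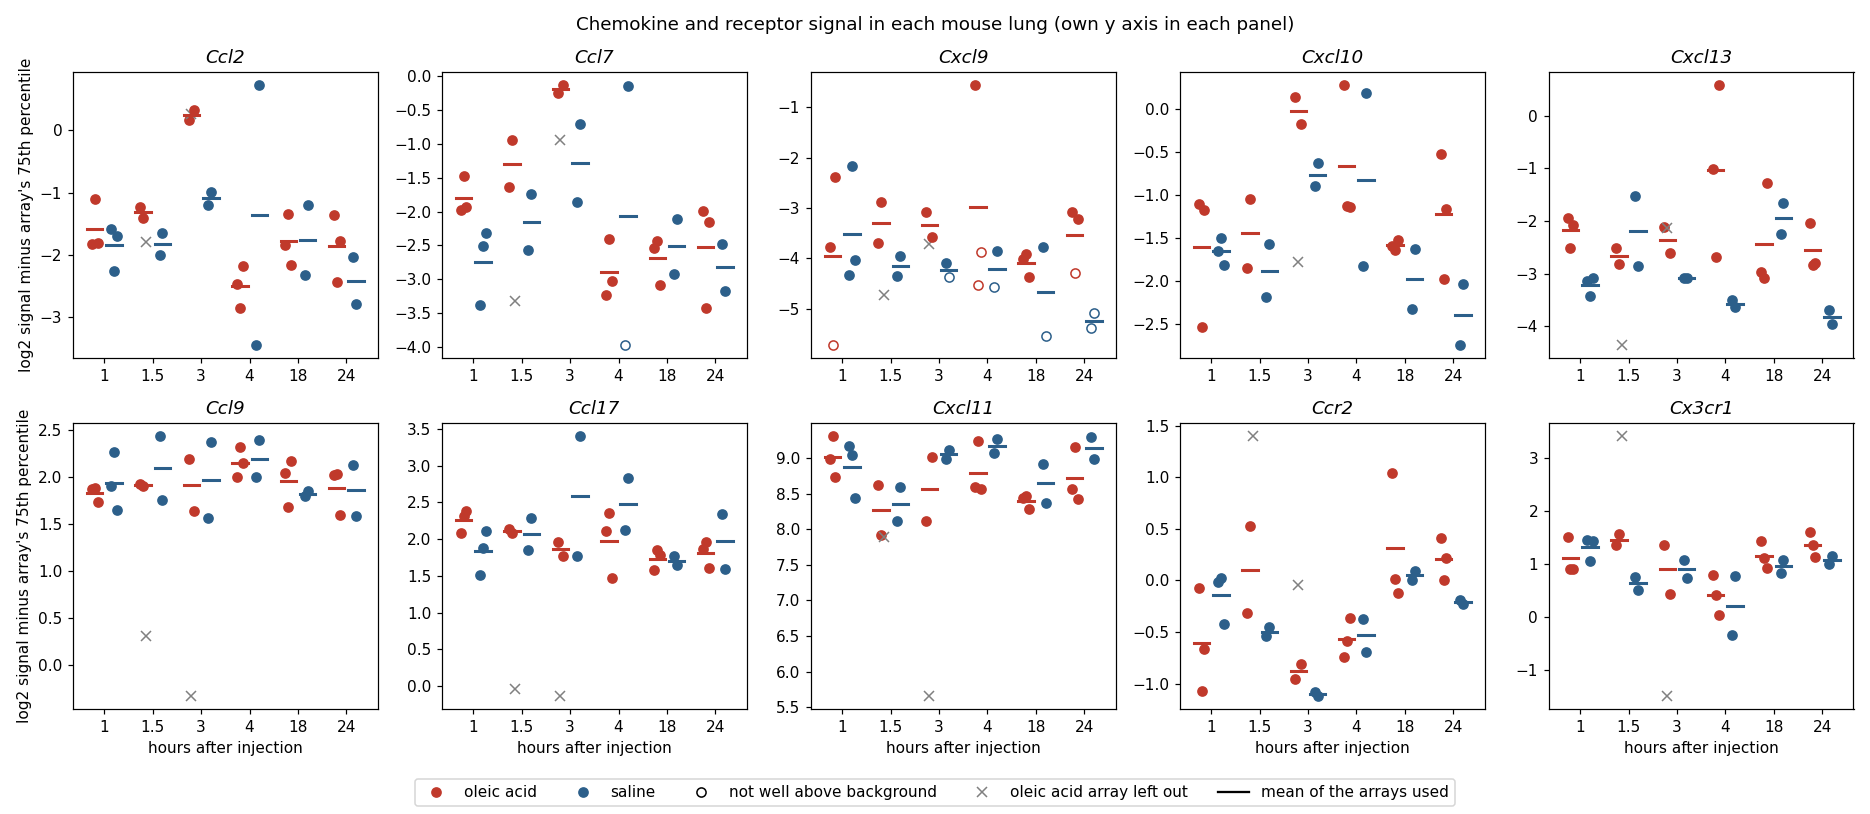
Log2 signal of each member's tested probe, relative to the array's 75th percentile (y axis, own scale per panel), by hours after injection, with oleic acid arrays left of saline arrays at each time, bars for group means, open circles for a probe not well above background and crosses for the arrays left out. Ccl2 and Ccl7 of saline 4 h replicate 2 stand far above replicate 1, and Cxcl13 lies above saline in every oleic acid array used at 1, 3, 4 and 24 h.

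Ccl2, the main monocyte attractant, was well above background on all 29 arrays. At 1 h its level was -1.83, -1.10 and -1.81 in oleic acid lungs and -1.59, -2.26 and -1.70 in saline lungs. At 1.5 h it was -1.22 and -1.41 after oleic acid and -2.00 and -1.66 after saline. The groups overlapped at 1 h, and both oleic acid arrays lay above both saline arrays at 1.5 h, as for 11% of features.

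At 3 h Ccl2 stood at 0.17 and 0.34 in oleic acid lungs, against -1.19 and -0.99 in saline lungs, which had the highest mean of the saline groups. The difference was 1.35 (95% interval -0.29 to 2.98, adjusted p = 0.853), a 2.54-fold ratio that did not pass. The oleic acid 3 h group had the highest mean of all 12 groups for both Ccl2 and Ccl7.

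At 4 h Ccl2 was -2.47, -2.85 and -2.18 in oleic acid lungs, while the saline lungs were at -3.45 and 0.73. The saline arrays thus lay 4.18 apart, on either side of the oleic acid arrays, and the difference was -1.14 (-2.64 to 0.35, adjusted p = 0.667). Without saline 4 h replicate 1 it was -3.23 and passed (adjusted p = 0.00556), and without saline 4 h replicate 2 it was 0.95 and did not (adjusted p = 0.757). Each of these leaves a lone saline array, assumed to vary like the other groups, and the first rests on the array at 0.73. On slide 3 alone, the 3 oleic acid 4 h arrays averaged -2.50 and the lone oleic acid 3 h array stood at 0.34.

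Later Ccl2 levels overlapped between treatments. They were -1.84, -1.35 and -2.16 in oleic acid lungs and -2.33 and -1.20 in saline lungs at 18 h. At 24 h they were -1.35, -2.43 and -1.78 after oleic acid and -2.04 and -2.78 after saline. The array carries Ccl2 on 10 spots, whose SD within an array had a median of 0.135. The residual SD between mice of a group, as moderated by limma, was 0.782, and the saline 4 h group alone had an SD of 2.96.

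Ccl7, a further Ccr2 ligand encoded beside Ccl2 on chromosome 11, was well above background on 28 of 29 arrays and missed that mark on saline 4 h replicate 1. At 1 h it was -1.97, -1.47 and -1.94 in oleic acid lungs and -3.39, -2.51 and -2.32 in saline lungs. At 1.5 h it was -1.64 and -0.94 after oleic acid and -2.57 and -1.74 after saline. At 3 h the levels were -0.24 and -0.12 after oleic acid, against -1.85 and -0.71 after saline. Every oleic acid array used lay above every saline array at these 3 times, with differences of 0.94 (-0.41 to 2.30), 0.86 (-0.79 to 2.52) and 1.10 (-0.56 to 2.75), none of which passed. Of all features, 3.19%, 11% and 18% had oleic acid arrays wholly above saline arrays at those times.

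From 4 h on the Ccl7 groups overlapped. The 4 h levels were -3.23, -2.41 and -3.03 in oleic acid lungs and -3.97 and -0.14 in saline lungs, where the same saline arrays were low and high as for Ccl2. The difference of -0.83 turned to 1.08 without saline 4 h replicate 2. At 18 h Ccl7 was -2.53, -2.43 and -3.08 after oleic acid and -2.92 and -2.11 after saline, and at 24 h -1.99, -3.43 and -2.16 after oleic acid and -2.47 and -3.17 after saline. In oleic acid lungs the late mean of Ccl7 was -2.60 and the early mean -1.54, a difference of -1.06 (-1.93 to -0.20, adjusted p = 0.147) that did not pass. It passed without saline 4 h replicate 1 (adjusted p = 0.0234) or replicate 2 (adjusted p = 0.0224), arrays that add to the estimate of spread but not to this mean. The same late minus early difference in saline lungs was -0.61 (-1.61 to 0.39).

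Ccl2 and Ccl7 followed each other across arrays. Among 16463 genes measured over the 29 arrays, Ccl7 was the gene most like Ccl2 by Pearson's r (0.89), ahead of Ccl3 (0.77) and Tnfaip2 (0.76). Fbxo34 (0.76) and Tnfaip2 (0.75) came next for Ccl7. These values describe arrays that share slides and scaling, and saline 4 h replicates 1 and 2 lie at the ends of the relation.

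**Figure D2:**
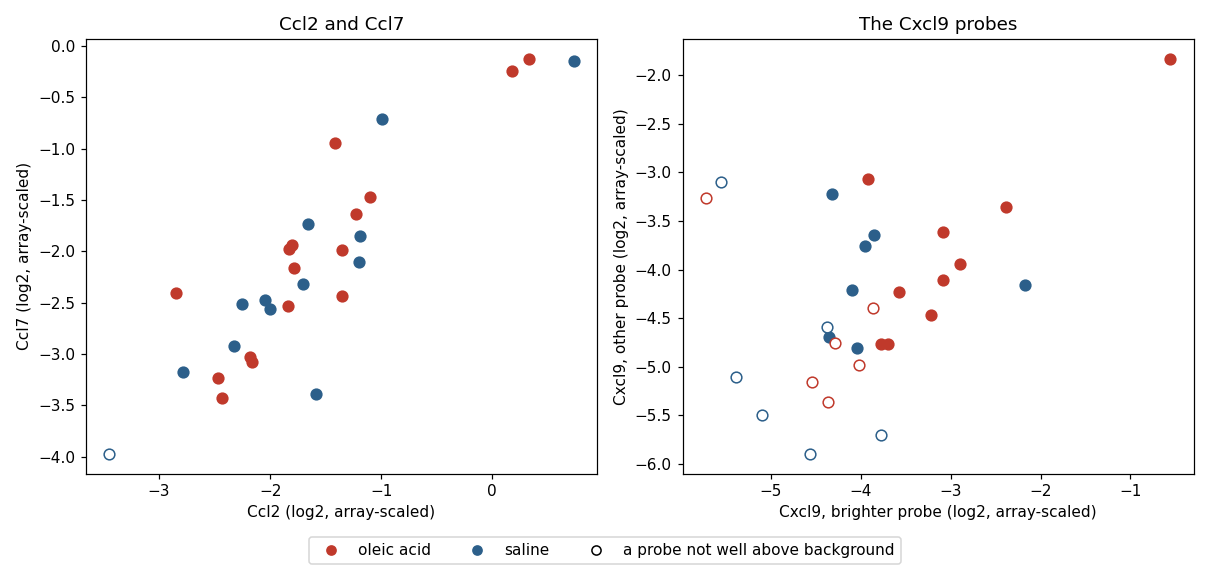
Log2 signals of the 29 arrays used (each axis scaled to the array's 75th percentile), with filled points where both probes were well above background. On the left Ccl2 (x axis) is set against Ccl7 (y axis), which rise together (r = 0.89), and on the right the tested Cxcl9 probe (x axis) is set against the other Cxcl9 probe (y axis), with oleic acid 4 h replicate 1 at the top right.

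Saline 4 h replicate 2 also lay above replicate 1 for Cxcl10 (0.19 and -1.82), Ccl17 (2.83 and 2.13) and the other Cxcl11 probe (3.04 and 2.06). The mean of 5 neutrophil markers was 5.54 on it and 4.66 on saline 4 h replicate 1, against 3.81 to 4.68 on the oleic acid 4 h arrays. Means of some other marker lists were higher on it too, with 1.80 and 1.03 for patrolling monocytes, 1.08 and 0.42 for T cells and 0.11 and -0.67 for natural killer cells. Not every list was higher. The mean of 4 classical monocyte markers was lower on it, with 1.03 and 1.27, as was Ccr2 among them, with -0.69 and -0.37. The mean of 30 other chemokine system genes was 0.11 on it and -0.52 on replicate 1. The part of any cell type in these chemokine levels was not tested.

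Ccr2, the receptor through which classical monocytes answer Ccl2 and Ccl7, was the member called between late and early oleic acid lungs. In oleic acid lungs it averaged 0.26 over 18 and 24 h and -0.49 over 1 to 4 h, a rise of 0.75 (0.38 to 1.11, 1.68-fold, adjusted p = 0.0166). It was 1 of 10 members called in this comparison, in which 5.34% of all features were called and 2.1% were called and higher late. Ccr2 and Ccl7 were the 2 members under an unadjusted 0.05, beside 19.8% of features. In saline lungs Ccr2 averaged -0.08 late and -0.57 early, a difference of 0.49 (0.06 to 0.91) that did not pass (unadjusted p = 0.0276, adjusted p = 0.249). The rises in the 2 treatments differed by 0.26 (-0.30 to 0.82, adjusted p = 1.00), so no difference between them was shown.

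The Ccr2 levels at 1 h were -0.08, -1.08 and -0.67 in oleic acid lungs and -0.01, 0.02 and -0.42 in saline lungs. At 1.5 h they were -0.32 and 0.53 after oleic acid and -0.54 and -0.45 after saline, and at 3 h -0.95 and -0.81 after oleic acid and -1.08 and -1.12 after saline. At 4 h they were -0.74, -0.59 and -0.37 in oleic acid lungs and -0.37 and -0.69 in saline lungs. In both treatments the 3 h group was the lowest of the 6 times.

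At 18 h Ccr2 stood at 1.04, 0.02 and -0.12 in oleic acid lungs and at -0.0003 and 0.09 in saline lungs. At 24 h it was 0.41, 0.0024 and 0.21 after oleic acid, above the -0.19 and -0.23 after saline, with a difference of 0.42 (-0.23 to 1.06, adjusted p = 0.835). Oleic acid arrays lay wholly above saline arrays at 1.5, 3 and 24 h, as for 11%, 18% and 5.92% of features. The highest Ccr2 level of the arrays used was that of oleic acid 18 h replicate 1.

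All late oleic acid arrays were on slide 4 and all early ones on slides 1 to 3, so the Ccr2 rise cannot be told apart from slide. On slide 3, saline 18 h averaged 0.05 and saline 4 h -0.53, a difference of 0.58 within 1 slide. With slide as a random block the oleic acid difference was 0.75 (adjusted p = 0.00445). That model cannot separate slide from time here, since late and early oleic acid arrays share no slide. The difference lost its call with all 31 arrays (0.57, adjusted p = 0.517), with median centring (0.69, adjusted p = 0.851) and without oleic acid 24 h replicate 1 (0.70, adjusted p = 0.0584). It lost it too without the 5 arrays with more than 70% of spots well above background (0.76, adjusted p = 0.0509), an alternative chosen after seeing the data.

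The other classical monocyte markers with a tested probe, F13a1, Vcan and Fn1, gave 0.13, -0.05 and -0.23 in the same comparison, and none passed, so Ccr2 was 1 of 4 tested. A probe for Ly6c2 was not used here. The mean of these 4 markers, Ccr2 included, spanned 0.98 to 1.41 in late oleic acid lungs and 0.76 to 1.38 in early ones. Among B cell markers, Cr2 passed in this comparison (0.76, adjusted p = 0.00767), while Ms4a1 gave 0.25, Cd79a 0.16, Pax5 -0.080 and Cd79b -0.19, none of which passed. In saline lungs Cr2 passed too (0.78, adjusted p = 0.0245), and these other genes did not. The part of any cell type in the Ccr2 values was not tested. The genes most like Ccr2 over the 29 arrays were Zfp760 (r = 0.80), Ifi209 (0.76) and Dnmt3a (0.76).

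**Figure D3:**
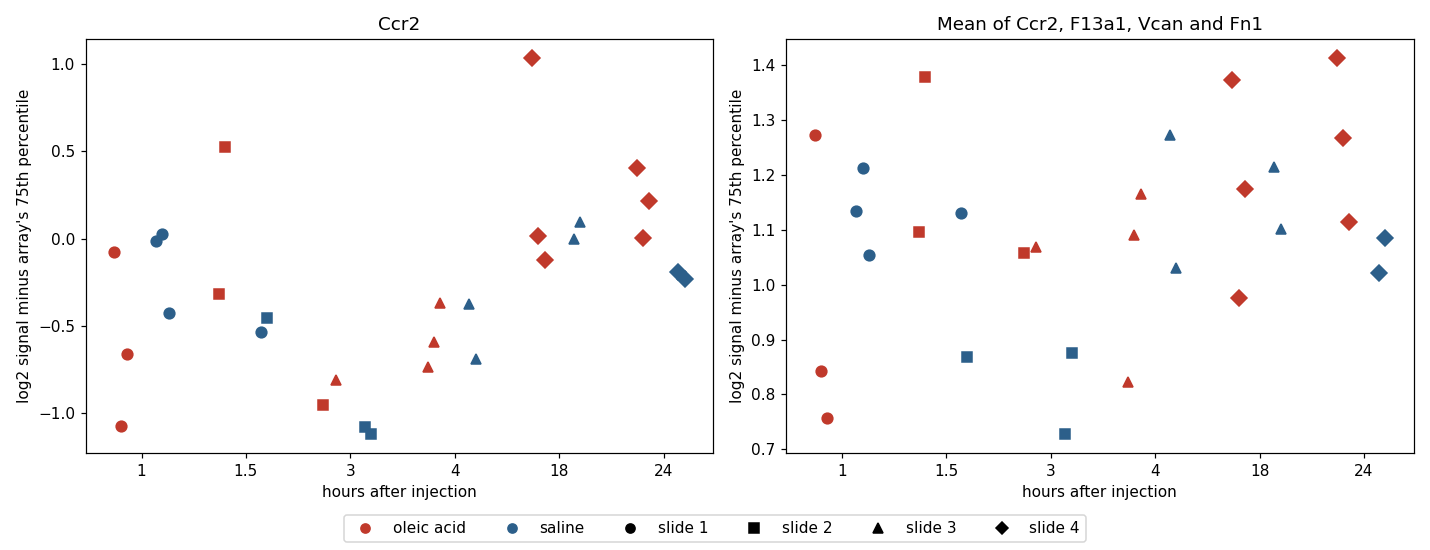
Log2 signal of Ccr2 (left) and the mean of 4 classical monocyte markers, Ccr2 included (right), on the 29 arrays used, by hours after injection, with oleic acid arrays left of saline arrays and the marker shape giving the slide. The diamonds of slide 4 hold all late oleic acid arrays, whose Ccr2 levels lie between -0.12 and 1.04.

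Cx3cr1, the fractalkine receptor of patrolling monocytes, was well above background with both of its probes on all 29 arrays. At 1.5 h its tested probe read 1.35 and 1.56 in oleic acid lungs and 0.76 and 0.52 in saline lungs. The difference was 0.82 (0.11 to 1.53, unadjusted p = 0.0259, adjusted p = 1.00), and the other probe gave 0.94 (-0.19 to 2.08). On slide 2 alone the 1.5 h oleic acid arrays averaged 1.46 and the saline array 0.51.

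At the remaining times the Cx3cr1 groups overlapped on the tested probe. It read 1.51, 0.90 and 0.91 in oleic acid lungs and 1.46, 1.05 and 1.43 in saline lungs at 1 h. It read 1.36 and 0.44 after oleic acid and 1.07 and 0.74 after saline at 3 h. The lowest group means of both treatments were at 4 h, with 0.79, 0.41 and 0.04 in oleic acid lungs and -0.34 and 0.77 in saline lungs. At 18 h the levels were 1.43, 1.12 and 0.93 after oleic acid and 0.84 and 1.08 after saline, and at 24 h 1.60, 1.35 and 1.14 after oleic acid and 1.00 and 1.15 after saline. The other Cx3cr1 probe did not overlap at 24 h, with -0.61, -1.06 and -0.65 in oleic acid lungs and -1.77 and -1.43 in saline lungs, a difference of 0.83 (-0.20 to 1.86) that did not pass. Of all features, 5.92% lay wholly above saline at 24 h. The 1 to 4 h mean difference of this probe was 0.54 (0.0090 to 1.07, adjusted p = 0.635). The other patrolling monocyte markers, Treml4, Spn, Nr4a1 and Ace, had 0 calls in the comparisons with saline. The genes most like Cx3cr1 were Irf8 (r = 0.81), a transcription factor of the monocyte lineage, Ptgir (0.79) and Rnase6 (0.78).

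Cxcl13, the B cell attractant, lay above saline at more times than any other member. At 1 h it was -1.95, -2.51 and -2.07 in oleic acid lungs and -3.14, -3.42 and -3.08 in saline lungs. At 3 h it was -2.12 and -2.61 after oleic acid and -3.09 and -3.08 after saline. At 24 h the levels were -2.04, -2.83 and -2.79 in oleic acid lungs and -3.70 and -3.96 in saline lungs. No oleic acid array overlapped a saline array at these times, with differences of 1.03 (-0.17 to 2.24), 0.72 (-0.76 to 2.19) and 1.27 (-0.07 to 2.62), none of which passed. Of all features, 3.19%, 18% and 5.92% had oleic acid arrays wholly above saline arrays at 1, 3 and 24 h.

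The difference was widest at 4 h, a time at which 8.34% of features lay wholly above saline, where Cxcl13 was -1.01, -2.69 and 0.58 in oleic acid lungs and -3.49 and -3.64 in saline lungs. It came to 2.53 (1.18 to 3.88), a 5.78-fold ratio, with an unadjusted p of 0.000886 that did not survive adjustment (adjusted p = 0.586). The oleic acid arrays spread widely (SD 1.63, n = 3), and without oleic acid 4 h replicate 2 the difference was 3.35 and passed (adjusted p = 0.0429). Under the other alternatives it ran down to 1.36, with normexp background correction.

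The groups overlapped at 1.5 h, with -2.51 and -2.82 after oleic acid and -1.53 and -2.86 after saline. They overlapped at 18 h too, with -2.97, -3.08 and -1.27 in oleic acid lungs and -2.25 and -1.65 in saline lungs. Cxcl13 oleic acid arrays lay wholly above saline arrays at 4 of 6 times, and 36 of 24751 features (0.145%) did so at 4 or more times. Averaged over 1 to 4 h the limma difference was 0.95 (0.26 to 1.64, adjusted p = 0.659), and Cxcl13 was the 1 member of 10 under an unadjusted 0.05 there, as were 7.41% of features. Limma's F test over all times gave F = 4.12 (adjusted p = 1.00).

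Among B cell markers, the difference at 4 h was 0.52 for Ms4a1, 0.36 for Cr2, -0.10 for Cd79b, -0.27 for Cd79a and -0.46 for Pax5, and none of these passed. Their part in the Cxcl13 values was not tested. The genes most like Cxcl13 across arrays were Fcna (r = 0.77), Timd4 (0.75), a receptor of resident macrophages, and Chpt1 (0.75).

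Cxcl10, an interferon-induced Cxcr3 ligand, was well above background on all 29 arrays with its tested probe. At 24 h it was -0.52, -1.98 and -1.16 in oleic acid lungs and -2.74 and -2.03 in saline lungs. The difference of 1.17 (0.01 to 2.33, 2.25-fold) had an unadjusted p of 0.0477 and an adjusted p of 0.835. At 3 h it was 0.14 and -0.18 after oleic acid, above the -0.90 and -0.63 after saline, a difference of 0.75 (-0.52 to 2.01). Of all features, 18% lay wholly above saline at 3 h and 5.92% at 24 h.

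At the other times the Cxcl10 groups overlapped. It was -1.10, -2.53 and -1.17 in oleic acid lungs and -1.65, -1.50 and -1.81 in saline lungs at 1 h, and -1.84 and -1.05 after oleic acid and -2.18 and -1.57 after saline at 1.5 h. At 4 h it was 0.28, -1.12 and -1.13 in oleic acid lungs and -1.82 and 0.19 in saline lungs, and at 18 h -1.59, -1.64 and -1.52 after oleic acid and -2.32 and -1.63 after saline. In saline lungs the late mean was -2.18 and the early mean -1.28, a difference of -0.90 (-1.67 to -0.14, adjusted p = 0.227) that did not pass. A further Cxcl10 probe, which matches another transcript record, was well above background on 2 of 29 arrays, oleic acid 4 h replicate 2 and saline 1.5 h replicate 2, and was not tested.

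Cxcl9, the interferon-gamma-induced ligand of the same receptor, lay near the detection limit. Its tested probe passed the background mark on 12 of the 16 arrays after oleic acid and on 8 of the 13 after saline. Its residual SD of 1.05, as moderated by limma, was the widest of the 10 members. At 24 h it read -3.09, -4.29 and -3.22 in oleic acid lungs, where 2 of 3 arrays measured it, and -5.38 and -5.09 in saline lungs, where neither did. With each saline array raised to its lowest signal well above background where the probe read lower, the oleic acid mean was 1.52-fold higher. That mean includes an oleic acid array that did not measure Cxcl9, so 1.52 is not a firm lower bound. The fitted difference was 1.71 (-0.30 to 3.71, adjusted p = 0.835), an interval that includes no change. The other Cxcl9 probe gave 1.02 (-0.91 to 2.96) at 24 h.

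Cxcl9 was also above saline in both oleic acid arrays at 1.5 h, with -3.70 and -2.89 after oleic acid and -4.35 and -3.95 after saline, and at 3 h, with -3.08 and -3.58 after oleic acid and -4.09 and -4.37 after saline. Of all features, 11% and 18% lay wholly above saline at these times. At 4 h Cxcl9 read -0.56, -4.54 and -3.86 in oleic acid lungs and -4.56 and -3.85 in saline lungs. The first of these oleic acid arrays held the highest level of both Cxcl9 probes among the arrays used, with -1.83 on the other probe. Levels at 1 h were -3.78, -5.72 and -2.39 after oleic acid and -4.32, -2.17 and -4.04 after saline, and at 18 h -4.02, -3.92 and -4.37 after oleic acid and -3.77 and -5.55 after saline. Some of these values missed the background mark. Cxcl9 was measured on 1 of 2 saline arrays at 3 h, and on 1 of 3 oleic acid and 1 of 2 saline arrays at 4 h. It was measured on 2 of 3 oleic acid arrays at 1 h and 1 of 2 saline arrays at 18 h. The genes most like Cxcl9 were Gbp11 (r = 0.74), which encodes a guanylate-binding protein, Serpina3g (0.71) and Serpina3f (0.69). Those most like Cxcl10 were Zfp330 (0.80), Mob4 (0.79) and Spty2d1 (0.79).

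Among interferon response genes, the difference at 24 h was 0.58 for Mx1 (-0.02 to 1.17), 0.40 for Gbp2, 0.37 for Irf7, 0.24 for Ifit1 and -0.22 for Isg15. None of these passed, and the median over all features was -0.12. Their part in the Cxcl9 and Cxcl10 values was not tested.

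The probe named Cxcl11 read 7.92 to 9.31 in oleic acid lungs and 8.11 to 9.29 in saline lungs, and the groups overlapped at every time. Its differences ran from -0.49 at 3 h to 0.13 at 1 h, and none passed. The genes most like it were Medag (r = 0.98), Synrg (0.97) and COX2 (0.96), the mitochondrial gene. The Medag and Synrg probes share runs of 20 bases with 80 and 82 promoter windows, as the whole tested Cxcl11 probe does with 22, while the COX2 probe shares none. The other Cxcl11 probe read 1.16 to 2.40 after oleic acid and 1.09 to 3.04 after saline, with a difference of -0.66 (-1.27 to -0.04, adjusted p = 0.676) at 4 h.

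Ccl9 and Ccl17 overlapped between treatments at every time. Ccl9 spanned 1.59 to 2.31 in oleic acid lungs and 1.56 to 2.43 in saline lungs, with a median of 1.96 after oleic acid and 1.91 after saline. Its differences ran from -0.18 at 1.5 h to 0.14 at 18 h, and the interval of the 1 to 4 h mean, -0.38 to 0.19, leaves room for changes of up to 0.769-fold or 1.14-fold. Ccl17 spanned 1.47 to 2.38 after oleic acid and 1.51 to 3.40 after saline, where saline 3 h replicate 2 held the highest value. Its differences ran from -0.72 (-1.53 to 0.10) at 3 h, or 0.10 without that array, to 0.43 (-0.23 to 1.10) at 1 h. The genes most like Ccl9 were Slc7a8 (r = 0.66), Rnmt (0.63) and Ptpn2 (0.62), and those most like Ccl17 were Itpkc (0.74), Eif4a3l1 (0.74) and Mapk13 (0.73).

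Averaged over times, 0 of 10 members were called in oleic acid against saline at 1 to 4 h (0% of features) or at 18 and 24 h (0.00796% of features, with 0 members and 3.03% of features under an unadjusted 0.05). At 1 to 4 h 7 of 10 differences were above 0, with a median of 0.22, beside a median of -0.02 over all features. At 18 and 24 h 8 of 10 were above 0, with a median of 0.26, beside -0.07 over all features. How many of all features lay above 0 was not counted. Ccl2, Ccl7, Cxcl9, Cxcl10 and Cxcl13 had residual SDs of 0.606 to 1.05, beside a median of 0.311 over all features. Treatment and slide cannot be told apart at 18 h. The late difference was 0.78 for Cxcl10 (-0.04 to 1.60). For Cxcl9 it was 1.13 (-0.28 to 2.55), a value that rests on signals below the background mark, since 5 of 6 late oleic acid arrays and 1 of 4 late saline arrays measured it. The change of the treatment difference between early and late times was called for 0 members (0% of features), and for 0 at an unadjusted 0.05. In saline lungs 0 of 10 members were called between late and early times (2.69% of features, 1.32% called and higher late), with Cxcl10 and Ccr2 under an unadjusted 0.05, as were 14.9% of features.

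**Figure D4:**
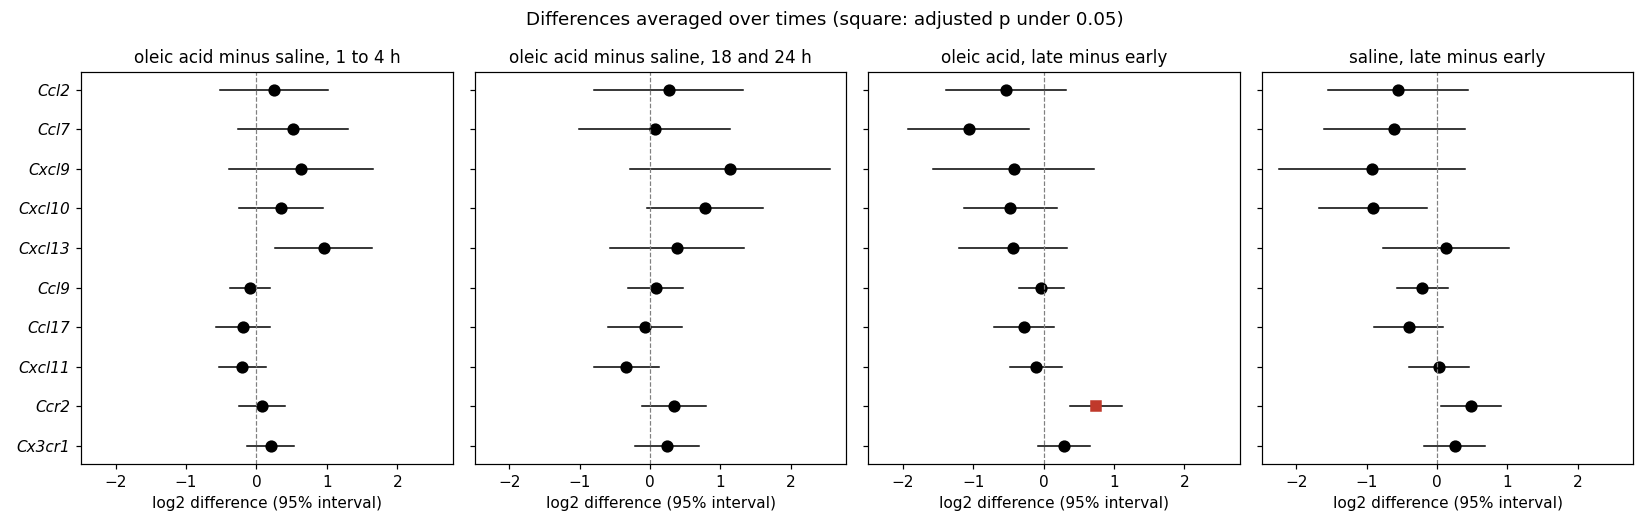
Log2 difference with its 95% interval (x axis) for each member (y axis), from left to right for oleic acid minus saline over 1 to 4 h, oleic acid minus saline over 18 and 24 h, late minus early in oleic acid lungs and late minus early in saline lungs. The red square, Ccr2 at 0.75 in oleic acid lungs, is the only member with an adjusted p under 0.05, and the intervals of Ccl2, Ccl7, Cxcl9, Cxcl10 and Cxcl13 are wider than those of the other members.

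The other genes of the monocyte and lymphoid chemokine system gave no call against saline. Of 39 other ligands and receptors, 30 had a tested probe, and limma called 0 in any comparison of oleic acid with saline, with 0 to 2 under an unadjusted 0.05 in each, where 1.27% to 7.64% of features met that mark. At 4 h the smallest unadjusted p-values belonged to Ccl3 (-1.48, -2.93 to -0.04), Ccl4 (-0.97, -2.03 to 0.09), Ccr8 (-0.90, -2.01 to 0.21) and Cx3cl1, the ligand of Cx3cr1 (-0.32, -0.72 to 0.08). The 4 h saline arrays lay apart, with a mean over the 30 genes of -0.52 on replicate 1 and 0.11 on replicate 2. The oleic acid 4 h arrays lay between them, at -0.43 to -0.24. Over 1 to 4 h 20 of 30 differences were above 0, with a median of 0.08, beside -0.02 over all features. Ccl8 gave 0.40 (0.05 to 0.75, adjusted p = 0.659) over these times. Over 18 and 24 h Ccl8 gave -0.56 (-1.05 to -0.08, adjusted p = 0.942) and Cxcr4 gave 0.33 (0.01 to 0.66, adjusted p = 0.942).

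Between late and early times, 2 of these 30 genes rose in oleic acid lungs and none fell. Of all features, 5.34% were called and 2.1% were called and higher late. The genes were Cxcr4, the receptor of Cxcl12, by 0.67 (adjusted p = 0.00537), and the epithelial chemokine Ccl27a, by 0.38 (adjusted p = 0.0277). In saline lungs 2 rose, Ccl27a by 0.56 (adjusted p = 0.0129) and Ccr6 by 0.75 (adjusted p = 0.0381), beside 2.69% of features called and 1.32% called and higher late. Time and slide cannot be told apart in the oleic acid comparison.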

How the data were processed

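Lung RNA (200 ng) was labelled with Cy3 and hybridised to 1-colour Agilent arrays, per the labels' protocols, and the submitters' processing notes name Agilent Feature Extraction 10.5.1.1 as the software. Per the file headers, the processed signal intensity is background-subtracted, and flags mark spots well above background and outlier spots. The authors also deposited a log2 table of 62927 rows, whose sorted columns differ by at most 0.0179, with the same median of 6.08 in every column; 59305 rows matched a spot. It correlates with the scanner values with a median Spearman's rho of 0.974 and was used as an alternative; how it was centred is not given in the sources used here.

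From the intensity values, log2 was taken, each array's 75th percentile over non-control spots was subtracted, outlier spots were dropped and spots of a probe averaged. A probe was kept where some group had it well above background on all its arrays. Current symbols came from RefSeq, and each gene was tested on its brightest kept probe. A model with 12 group means was fitted with limma 3.58.1 in R 4.3.3 on 29 arrays and tested on simulated data. Contrasts were oleic acid minus saline at each time and averaged over 1 to 4 h and over 18 and 24 h, late minus early within each treatment, the change of the treatment difference, and an F test over times. Intervals are 95%, arrays limit the precision by their number, and tests are two-sided. Each array is 1 mouse.

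All members, with all their probes, were named. Of the other chemokine genes those that passed, or up to 4 with the smallest p, were named, and for each member the 3 genes with the highest Pearson r. The members and all lists were chosen with earlier results of these data known. Other scalings, filters, models and omissions of arrays were run as alternatives. Replicate numbers were not used as pairs in the main model. Residual correlations of 12 same-numbered pairs of arrays ran from -0.767 to 0.620, with 7 over 0.1. In groups of 2 arrays the residuals mirror each other, so these correlations cannot settle whether mice were paired. Some marker genes, and the list means that hold them, are not reported here.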

Additional observations from a re-analysis of the deposited data

Results flagged for a closer look

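Values outside the comparisons lay above the saline arrays of their time in 10 cases, 9 of them on the 2 arrays left out for their spike-in response. None was tested. Only values above saline were searched for, so lower values on these arrays are not listed. On oleic acid 3 h replicate 2, 99.6% of spots were well above background. Oleic acid 1.5 h replicate 3 had 15585 outlier spots and 523 saturated spots. On oleic acid 3 h replicate 2, Ccl2 was at 0.27, against -0.99 on the higher saline array, and Ccr2 was at -0.05, against -1.08. On the same array Cxcl13 was at -2.13, against -3.08 in saline, and Cxcl9 was at -3.72, against -4.09. The other Cxcl9 probe was at -0.86 on it, against -4.21 in saline, and the untested Cxcl10 probe at -1.38, against -5.58. On oleic acid 1.5 h replicate 3, Ccr2 was at 1.40, against -0.45 in saline, Cx3cr1 at 3.41, against 0.76, and the other Cxcl9 probe at -2.14, against -3.75. Among the arrays used, the untested Cxcl10 probe was at -2.41 on oleic acid 4 h replicate 2, against -6.33 on the higher saline array, while the tested Cxcl10 probe read -1.12 there.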

How the results depend on the processing

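Each result was recomputed under 44 alternatives, chiefly all 31 arrays, 29 omissions of 1 array, other scalings, filters and probe summaries, the deposited table, slide or replicate number in the model, and array weights. An alternative chosen after seeing the data left out the 5 arrays with more than 70% of spots well above background. Slide as a fixed term could not be fitted for contrasts of 18 h or of late against early. The number of members called in late against early oleic acid lungs, 1 as reported, was 0 with all 31 arrays, 0 with median centring, 0 without the 5 arrays and 0 to 2 over the omissions. It was 0 to 1 over the omissions for oleic acid against saline at 4 h and for late against early saline lungs, where Ccl2 was called without saline 4 h replicate 1 (-1.08, adjusted p = 0.0271). The cause was not tested. Median centring moved the median of all features by up to 0.31 (oleic acid against saline at 18 h), and quantile normalization and the deposited table by 0.11 at 24 h. Calls over all features ranged from 45 to 2866 (1341 as reported) in late against early oleic acid lungs and from 26 to 897 (675) in saline lungs. Against saline they ranged from 0 to 690 at 1 h, 98 at 1.5 h, 117 at 3 h, 34 at 4 h, 237 at 18 h and 103 at 24 h. They ranged from 0 to 25 for 1 to 4 h, 188 for 18 and 24 h, 111 for their change and 181 for the F test. Whether same-numbered arrays were paired is not settled. With the replicate block 1 member was called in late against early oleic acid lungs (Ccr2, 0.76, adjusted p = 0.0195) and 0 against saline. Signal near background limits Cxcl9 and the untested Cxcl10 probe.

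Of 110 member differences, 50 turned sign in at least 1 alternative, in 157 values, and none of these 50 had an unadjusted p under 0.05 as reported. Differences are oleic acid minus saline unless named otherwise. All 31 arrays gave -0.68 for Ccl17 at 1.5 h, 0.14 for Cxcl11 in the late minus early change and 0.29 for Ccl9, 0.066 for Ccl17 and 0.17 for Cxcl11 late minus early in oleic acid lungs. Normexp background correction gave 0.0042 for Cxcl9 at 1 h, 0.015 for Ccl9 and 0.049 for Cx3cr1 at 3 h, 0.054 for Ccl9 and -0.027 for Cxcl10 at 4 h and -0.0061 for Cxcl9 at 18 h. It also gave -0.063 for Ccl7 over 18 and 24 h and -0.067 for Ccl2 and -0.10 for Cxcl9 in the late minus early change. Quantile normalization gave -0.067 for Cxcl10 at 1 h, 0.0065 for Cx3cr1 at 3 h, 0.025 for Ccl9 at 4 h and 0.071 for Ccl2 at 18 h. It also gave 0.026 for Ccl9 and 0.035 for Cxcl11 late minus early in oleic acid lungs and -0.052 for Cxcl13 late minus early in saline lungs. Median centring gave 0.11 for Ccl9 and 0.21 for Cxcl11 at 1.5 h, 0.28 for Ccl2, 0.14 for Ccl7 and 0.059 for Cxcl11 at 18 h, 0.024 for Ccl17 at 24 h and 0.18 for Ccl17 over 18 and 24 h. It also gave 0.088 for Cxcl11 in the late minus early change and -0.25 for Cxcl11, -0.15 for Cxcl13 and -0.025 for Cx3cr1 late minus early in saline lungs. The authors' deposited table gave -0.034 for Cxcl10 at 1 h, 0.13 for Cxcl11 at 1.5 h, 0.040 for Cx3cr1 at 3 h and 0.087 for Ccl9, -0.020 for Cxcl10 and 0.18 for Cxcl11 at 4 h. It also gave 0.063 for Ccl2, 0.10 for Ccl7 and -0.0075 for Ccl17 at 18 h, 0.11 for Cxcl11 over 1 to 4 h, 0.025 for Ccl9 late minus early in oleic acid lungs and -0.022 for Cxcl13 late minus early in saline lungs. The mean of a gene's kept probes gave 0.092 for Cx3cr1 at 3 h, -0.082 for Cx3cr1 in the late minus early change and 0.025 for Cxcl11 late minus early in oleic acid lungs. Slide as a fixed term gave 0.16 for Ccl9, -0.17 for Ccl17 and 0.19 for Cxcl13 at 1.5 h, 0.23 for Ccl9 and 0.45 for Cx3cr1 at 3 h and 0.059 for Ccl9 over 1 to 4 h. The replicate block gave 0.054 for Ccl9 and 0.14 for Cx3cr1 at 3 h and 0.027 for Ccl9 and 0.0069 for Ccr2 at 4 h. Array weights gave -0.026 for Cxcl11 and 0.16 for Cx3cr1 at 1 h, -0.024 for Ccl9 at 24 h and -0.10 for Cx3cr1 in the late minus early change. Leaving out the 5 arrays gave 0.021 for Cxcl9 at 1 h, 0.16 for Cxcl11 at 1.5 h, 0.32 for Ccl2, 0.11 for Ccl7, -0.087 for Ccl17, -0.43 for Cxcl9 and 0.12 for Cxcl13 at 18 h and -0.16 for Cxcl9 in the late minus early change. It also gave 0.045 for Ccl9 late minus early in oleic acid lungs and -0.18 for Cxcl13 late minus early in saline lungs.

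At 1 h the omissions gave -0.26 to 0.052 for Ccl9, -1.24 to 0.43 for Cxcl9, -0.20 to 0.51 for Cxcl10 and -0.090 to 0.28 for Cxcl11. At 1.5 h the omissions gave -0.52 to 0.16 for Ccl9, -0.17 to 0.26 for Ccl17, -1.13 to 0.19 for Cxcl13 and -0.43 to 0.27 for Cxcl11. At 3 h the omissions gave -0.47 to 0.45 for Cx3cr1, -0.46 to 0.36 for Ccl9 and -1.54 to 0.10 for Ccl17. At 4 h the omissions gave -0.84 to 1.16 for Cxcl10, -0.19 to 0.12 for Ccr2, -0.36 to 0.75 for Cx3cr1, -3.23 to 0.95 for Ccl2, -2.75 to 1.08 for Ccl7 and -0.24 to 0.16 for Ccl9. At 18 h the omissions gave -0.52 to 0.028 for Cxcl11, -0.59 to 0.54 for Ccl2, -0.57 to 0.24 for Ccl7, -0.031 to 0.10 for Ccl17, -0.33 to 1.45 for Cxcl9 and -0.10 to 0.48 for Ccr2. At 24 h the omissions gave -0.53 to 0.22 for Ccl17, -0.051 to 0.75 for Ccl7 and -0.25 to 0.30 for Ccl9. Over 1 to 4 h the omissions gave -0.026 to 0.19 for Ccr2, -0.20 to 0.0064 for Ccl9, -0.39 to 0.017 for Ccl17 and -0.28 to 0.77 for Ccl2. Over 18 and 24 h the omissions gave -0.014 to 0.55 for Ccl2, -0.14 to 0.29 for Ccl7, -0.25 to 0.12 for Ccl17 and -0.056 to 0.22 for Ccl9. In the late minus early change the omissions gave -0.50 to 0.54 for Ccl2, -0.097 to 0.18 for Cx3cr1, -0.081 to 0.33 for Ccl17, -0.93 to 0.025 for Ccl7 and -0.27 to 0.0058 for Cxcl11. Late minus early in oleic acid lungs the omissions gave -0.10 to 0.041 for Ccl9 and -0.22 to 0.0077 for Cxcl11. Late minus early in saline lungs the omissions gave -0.11 to 0.16 for Cxcl11 and -0.039 to 0.29 for Cxcl13.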
